A study of Mus musculus with 10 samples.

Results

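The receptors and ligands of axon guidance were followed in RNA-sequencing of a mouse melanoma line and of a subline of it that had been passaged repeatedly over the liver. The members were chosen by their GENCODE M21 gene symbols alone, as the numbered or lettered genes of 9 families. They were 14 Eph receptors, 8 ephrins, 20 semaphorins, 9 plexins, 2 neuropilins, 3 Slits, 4 Robos, 4 netrins and 4 Unc5 receptors, 68 genes in all of the 55385 gene identifiers in the deposited tables. WT31 is a melanoma line from Tyr::NrasQ61K/°; INK4a-/- mice, in which a mutant Nras (Q61K) is expressed under the melanocyte promoter of tyrosinase (Tyr) and the tumor suppressor INK4a is missing. WT31_P5IV was raised from WT31 by 5 rounds of intravenous injection and regrowth of the cells from liver metastases. Each line was sequenced as 5 libraries from untreated cells in culture. Both groups share the founding genotype and the culture medium, and differ in the liver passages and the culture between them. The libraries are labelled as biological replicates, but each group is a single cell line, and the passages cannot be told apart from any other way in which the lines had drifted.

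Axon guidance cues are secreted or membrane-bound proteins that attract or repel a growing nerve fibre, and migrating cells read them with the same receptors. Semaphorins signal through plexins, and most secreted class 3 semaphorins need a neuropilin as co-receptor. Ephrins are bound to the membrane and are read by Eph receptor tyrosine kinases on the neighbouring cell, Slits are read by Robo receptors, and netrins by Dcc, neogenin and the Unc5 receptors. Melanocytes arise from the neural crest, a migratory cell population of the embryo whose routes are shaped by these cues, and the families are often expressed in melanoma.

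The total was 24255389 to 25750639 estimated counts per library. Levels of single genes are given as CPM, which are counts relative to the library's total after scaling by TMM (trimmed mean of M-values), and levels of different genes are compared only as TPM, in which transcripts are counted relative to all transcripts with their length taken into account. Differences are log2 fold changes of WT31_P5IV over WT31 from edgeR's quasi-likelihood test, each with a standard error (SE) derived from that test. A gene was called when its Benjamini-Hochberg adjusted p over all 13620 tested genes was under 0.05. A value that stands in parentheses before an adjusted p is this log2 fold change, with or without its SE, and levels in TPM or CPM are means ± SD of the 5 libraries of a line. A count of 3 was taken as the detection floor, which is 0.114 to 0.129 CPM here and covers counting error only. Melanocyte genes were abundant in all libraries, with a summed 14903 to 15734 TPM of 10 markers in WT31 and 16692 to 18597 TPM in WT31_P5IV. Of these markers, 5 were higher (Pmel by 2.33-fold) and 3 were lower (Tyrp1 by 1.94-fold). Levels of markers of other cell types were given by lists. Hepatocyte markers summed to 2.15 to 2.64 TPM in WT31 and 1.95 to 4.03 TPM in WT31_P5IV, endothelial markers, nearly all of it Egfl7, to 11.6 to 17.6 and 15.7 to 19.1 TPM, and macrophage and leukocyte markers to 7.30 to 9.58 and 7.47 to 11.4 TPM. Within the last list, Cd68 rose 2.72-fold and Lyz2 fell 4.01-fold, while the other 6 markers were too low to be tested. Stellate cell and fibroblast markers summed to 1.40 to 2.31 TPM in WT31 and 2.06 to 2.71 TPM in WT31_P5IV. Of the 5 tested, 3 were higher (Acta2 2.74-fold, with 2 to 12 counts in WT31, Col1a2 2.62-fold and Col1a1 1.99-fold). Of 6 neural crest and Schwann cell markers, which melanoma cells also express, 5 were lower and Erbb3 was higher, with sums of 338 to 383 and 249 to 259 TPM. Among all tested genes, 34.6% were higher and 33.9% were lower. The part of other cells in the results below was not tested. The hepatocyte genes Tat, Fgb and Serpina1a, the endothelial genes Cdh5 and Lyve1 and the neuronal gene Syt1 were at 0 in every library.

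Of the 68 members, 47 had enough counts to be tested. A large part of the whole transcriptome differed between these lines, with 68.5% of all tested genes called, 34.6% higher and 33.9% lower in WT31_P5IV. Among the 47 tested members, 29 were higher, 10 were lower and 8 were not called. The members' median log2 fold change was 0.57, against 0.01 over all tested genes, and the median of its absolute value was 0.72, against 0.30. With a change of at least 2-fold required as well, 12 members were higher and 3 were lower, where 9.10% of all tested genes passed (5.42% higher and 3.69% lower). For 33 of the 47 the CPM ranges of the lines were fully apart, which was also found in 54.1% of all tested genes. In a bulk measurement of this kind, fewer expressing cells and less RNA per cell cannot be told apart.

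**Figure D1:**
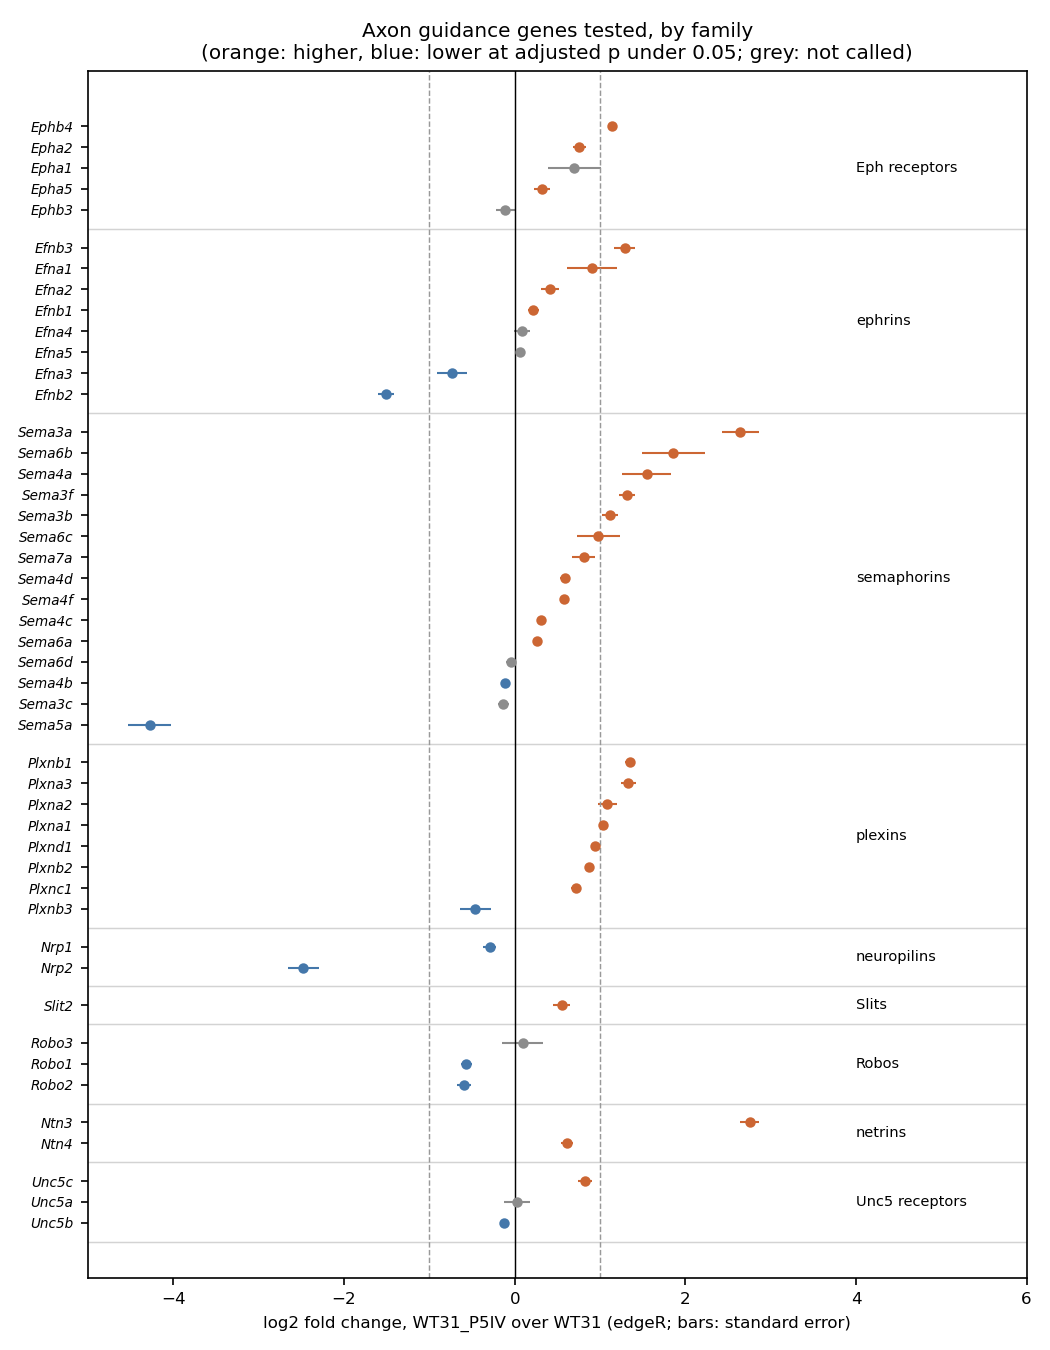
Log2 fold change of WT31_P5IV over WT31 for the 47 tested axon guidance genes, sorted within families, with the standard error as bars and dashed lines at a 2-fold change. The plexins lie to the right of 0 except Plxnb3, both neuropilins lie to the left, and Ntn3 at 2.76 and Sema5a at -4.28 are the extremes.

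By summed TPM, semaphorins and plexins were the most abundant families. Plexin transcripts summed to 189 ± 7.08 TPM in WT31 and to 320.0 ± 9.86 TPM in WT31_P5IV (SD, n = 5 libraries each), with no overlap between groups. Eph receptors went from 27.2 ± 2.21 to 42.8 ± 1.63 TPM and netrins from 5.00 ± 0.470 to 9.54 ± 0.977 TPM, both without overlap. In contrast, Robos went from 38.1 ± 4.31 to 22.4 ± 1.36 TPM and neuropilins from 16.1 ± 2.40 to 11.0 ± 0.957 TPM. For semaphorins the sums were 306 ± 19.2 and 293 ± 20.4 TPM, and for ephrins 88.7 ± 7.43 and 83.0 ± 1.62 TPM. The ranges of these last sums overlapped, and the sign of their difference turned when levels were computed from CPM per inferred effective length. Slits summed to 1.90 ± 0.507 and 2.98 ± 0.413 TPM, and Unc5 receptors to 22.8 ± 2.85 and 27.8 ± 1.91 TPM. In both of these families the ranges of the lines overlapped too.

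**Figure D2:**
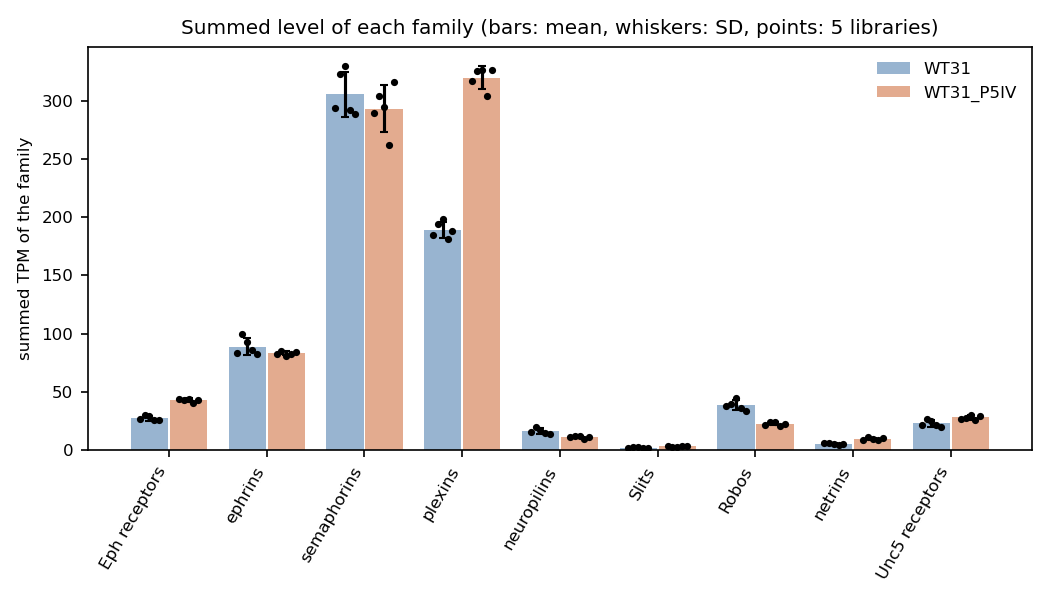
Summed TPM of each family in WT31 and WT31_P5IV, with bars for the mean, whiskers for the SD and points for the 5 libraries of each line. Plexins rise from 189 to 320.0 TPM and pass the semaphorins, whereas Robos and neuropilins are lower in WT31_P5IV.

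The promoters of 5 members that carry the findings below are shown first. They are Sema5a, Nrp2 and Efnb2, the tested members that fell by more than 2-fold, Ntn3 and Ephb4. Ntn3 had the largest increase of the tested members in the reported fit, and Ephb4 is the receptor of ephrin-B2. Each stretch is from RefSeq on GRCm38.p6, runs from 250 bases before to 50 bases after the RefSeq start of the gene, and lies within 144 bases of the GENCODE start. Capitals mark the CG pairs, the sites at which vertebrate DNA can be methylated, and methylation was not measured here.

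Sema5a (chr15:32244563-32244862, forward strand): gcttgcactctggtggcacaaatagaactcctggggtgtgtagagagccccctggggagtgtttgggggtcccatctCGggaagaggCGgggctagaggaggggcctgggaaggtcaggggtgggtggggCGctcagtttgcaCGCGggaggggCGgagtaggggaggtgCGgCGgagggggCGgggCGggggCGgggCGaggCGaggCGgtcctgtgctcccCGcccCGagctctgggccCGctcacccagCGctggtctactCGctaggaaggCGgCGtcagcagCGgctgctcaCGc

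Nrp2 (chr1:62703067-62703366, forward strand): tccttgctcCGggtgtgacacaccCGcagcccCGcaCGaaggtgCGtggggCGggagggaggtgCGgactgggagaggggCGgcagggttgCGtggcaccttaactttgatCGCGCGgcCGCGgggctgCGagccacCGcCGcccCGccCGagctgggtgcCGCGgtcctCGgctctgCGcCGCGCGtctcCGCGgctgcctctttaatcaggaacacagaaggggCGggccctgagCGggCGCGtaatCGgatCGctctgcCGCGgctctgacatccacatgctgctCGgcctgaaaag

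Efnb2 (chr8:8661193-8661492, reverse strand): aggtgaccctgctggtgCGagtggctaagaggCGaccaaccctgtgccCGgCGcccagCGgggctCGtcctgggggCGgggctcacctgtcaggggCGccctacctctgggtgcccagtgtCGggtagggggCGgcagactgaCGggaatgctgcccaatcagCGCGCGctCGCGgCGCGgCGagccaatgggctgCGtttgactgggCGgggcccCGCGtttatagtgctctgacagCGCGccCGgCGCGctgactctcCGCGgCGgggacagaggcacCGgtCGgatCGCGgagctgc

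Ntn3 (chr17:24209338-24209637, reverse strand): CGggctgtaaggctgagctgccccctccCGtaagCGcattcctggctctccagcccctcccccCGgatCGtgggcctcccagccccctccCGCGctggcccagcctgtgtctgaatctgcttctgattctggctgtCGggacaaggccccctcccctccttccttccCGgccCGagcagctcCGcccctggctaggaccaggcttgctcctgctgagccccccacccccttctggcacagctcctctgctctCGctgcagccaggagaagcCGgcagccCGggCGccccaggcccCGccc

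Ephb4 (chr5:137349859-137350158, forward strand): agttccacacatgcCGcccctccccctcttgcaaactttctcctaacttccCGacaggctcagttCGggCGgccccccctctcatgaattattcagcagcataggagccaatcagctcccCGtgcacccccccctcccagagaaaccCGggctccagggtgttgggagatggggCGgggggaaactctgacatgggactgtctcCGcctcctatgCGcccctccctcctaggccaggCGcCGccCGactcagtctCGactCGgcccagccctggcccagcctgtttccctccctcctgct

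The promoters of the genes that fell held 23 CG pairs in Sema5a, 37 in Nrp2 and 35 in Efnb2, and those of the genes that rose held 16 in Ntn3 and 14 in Ephb4. The median over 32851 promoters of this length was 7. None of these 5 stretches contained CACGTG or TCATGTG, letters bound by Mitf-type factors, or TGACTCA, the AP-1 motif, on either strand, and none of these motifs contains another. These letters occur in 7.15%, 3.77% and 5.20% of all promoters of this length. Of the 68 members, 59 had a promoter in the table, and 53 of these had one near their GENCODE start, with a median of 23 CG pairs. Of the 12 members that rose past the 2-fold filter, 6 had such a promoter, with a median of 17 (range 4 to 36). For the 3 that fell past it the median was 35 (range 23 to 37), so the ranges overlapped.

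Semaphorins were the largest family, and 11 of the 15 tested were higher and 2 were lower, where 34.6% and 33.9% of all tested genes were. The most abundant of them was not called. Sema6d, a transmembrane ligand of Plxna1, had the highest level of all members, with 165 ± 13.6 TPM in WT31 and 142 ± 12.6 TPM in WT31_P5IV. Its CPM was 639, 691, 712, 635 and 629.9 in the WT31 libraries and 617, 673, 649, 568 and 699 in the WT31_P5IV libraries. These ranges overlapped and the log2 fold change of -0.04 ± 0.06 (adjusted p = 0.494) had a 95% interval of -0.16 to 0.07. It was called lower on the TPM scale, by -0.22 (adjusted p = 0.0141 with a pseudocount of 0.1 and 0.0143 with 1). Sema6d supplied 53.8% ± 1.17 of the semaphorin TPM in WT31 and 48.3% ± 1.25 in WT31_P5IV. Sema6a, a ligand of Plxna2 and Plxna4, was next with 43.0 ± 2.00 TPM in WT31 and 44.6 ± 3.13 TPM in WT31_P5IV, and its CPM rose by 1.20-fold (adjusted p = 2.12e-04), while it was not called on the TPM scale.

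Larger changes were found in the secreted class 3 semaphorins, which were less abundant. Sema3a, the growth cone collapsing ligand of Nrp1 and plexin A receptors (ENSMUSG00000028883.17, chr5:13125414-13602565, forward strand), had 0.353, 0.454, 0.784, 0.393 and 0.317 CPM in WT31 and 2.65, 3.09, 3.46, 2.27 and 3.06 CPM in WT31_P5IV. Every WT31_P5IV library was above every WT31 library, and the log2 fold change was 2.65 ± 0.21 (adjusted p = 4.70e-08). Sema3f, which acts through Nrp2 (ENSMUSG00000034684.12, chr9:107681500-107710475, reverse strand), had 5.92, 4.58, 5.49, 6.01 and 6.65 CPM in WT31 and 15.6, 16.0, 14.0, 13.1 and 12.5 CPM in WT31_P5IV. The groups were apart, with a log2 fold change of 1.31 ± 0.10 (adjusted p = 1.88e-08). Sema3b, its close neighbour on chromosome 9 and also a neuropilin ligand (ENSMUSG00000057969.15, chr9:107597674-107609229, reverse strand), had 2.51, 2.88, 2.55, 2.71 and 3.25 CPM in WT31 and 6.35, 6.65, 5.91, 5.60 and 5.70 CPM in WT31_P5IV. Its groups were apart as well, with 1.12 ± 0.09 on the log2 scale (adjusted p = 7.55e-08), or 0.95 with a correction for GC content and length and 0.81 and 0.59 in the TPM fits. Around Sema3f, 23 of 36 tested genes within 500 kb were higher too, with a median log2 fold change of 0.29, and the part of the region in these results was not tested. Sema3c, the most abundant secreted semaphorin with 20.4 ± 2.06 TPM in WT31 and 16.4 ± 1.68 TPM in WT31_P5IV, was not called (adjusted p = 0.0896, 95% interval -0.28 to 0.01). Its call changed in 8 of the alternative fits, among them those without WT31 replicate 5 (adjusted p = 0.0306) and without WT31_P5IV replicate 2 (adjusted p = 0.0439) or 3 (adjusted p = 0.0469) and that with the replicate block (adjusted p = 0.0174). Sema3d, Sema3e and Sema3g had at most 14 counts in any library and were not tested.

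Sema5a was the member with the strongest decrease. It is a transmembrane semaphorin with thrombospondin repeats and a ligand of Plxnb3 (ENSMUSG00000022231.10, chr15:32244810-32696341, forward strand). The estimated counts were 80, 112, 113, 62 and 80 in the WT31 libraries and 3, 4, 6, 4 and 4 in the WT31_P5IV libraries, close to the floor of 3. In CPM these were 3.14, 4.24, 4.43, 2.44 and 3.17 in WT31 and 0.126, 0.172, 0.241, 0.168 and 0.165 in WT31_P5IV, a 19.4-fold decrease. The log2 fold change was -4.28 ± 0.25 (adjusted p = 1.86e-09), but it was -3.35 with an offset for the effective length, so the size of the decrease depends on how length is treated. Its level per length was 0.552 ± 0.132 TPM in WT31 and 0.0524 ± 0.0178 TPM in WT31_P5IV, so that it made up little of the semaphorin transcript even before the passages. Sema5b, its paralog, had at most 1 count in any library.

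Class 4 semaphorins are transmembrane ligands of plexins B and D. Sema4a (ENSMUSG00000028064.17, chr3:88435959-88461182, reverse strand) was low in both lines, with 0.431, 0.189, 0.157, 0.354 and 0.238 CPM in WT31 and 0.715, 0.558, 1.05, 0.800 and 0.909 CPM in WT31_P5IV. The groups did not overlap and the log2 fold change was 1.55 ± 0.28 (adjusted p = 1.95e-04). Sema4a passed the filter on low counts through WT31_P5IV, the line in which it is higher, which favours groups that are apart. Sema4d, the ligand of Plxnb1, rose from 19.2 to 28.9 CPM (log2 fold change 0.58 ± 0.05, adjusted p = 2.30e-07). Sema4f was close to it, rising from 25.2 to 37.5 CPM (0.57 on the log2 scale, adjusted p = 5.50e-08). Within 500 kb of Sema4f, 21 of 26 tested genes were higher, with a median log2 fold change of 0.60, and the part of the region was not tested. A smaller increase was seen in Sema4c, a Plxnb2 ligand, from 51.0 to 63.3 CPM (0.31, adjusted p = 2.45e-05). Sema4b went the other way by only 1.08-fold (adjusted p = 0.0463), with overlapping groups, and this call was lost without any of 6 single libraries, WT31 replicate 4 or 5 or WT31_P5IV replicate 1, 3, 4 or 5 (adjusted p up to 0.105), and also with the replicate block (adjusted p = 0.0700), limma voom after TMM scaling (adjusted p = 0.0507) and upper-quartile scaling (adjusted p = 0.127). Sema4g had 3 to 13 counts and was not tested.

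Of the remaining class 6 semaphorins, Sema6b, a plexin A ligand (ENSMUSG00000001227.12, chr17:56123085-56140343, reverse strand), had 0.314, 0.114, 0.157, 0.275 and 0.0792 CPM in WT31 and 0.715, 1.03, 0.804, 0.505 and 0.413 CPM in WT31_P5IV. These are 2 to 8 estimated counts against 10 to 24. Sema6b passed the filter on low counts through WT31_P5IV, the line in which it is higher, which favours groups that are apart. The log2 fold change of 1.86 ± 0.37 (adjusted p = 3.47e-04) is imprecise. Sema6c stayed just under the 2-fold filter, rising from 0.856 to 1.70 CPM (log2 fold change 0.98 ± 0.25, adjusted p = 0.00311), and passed it without WT31 replicate 1 or 2 or WT31_P5IV replicate 2, 3 or 5, with 1.03 to 1.11, and also with upper-quartile scaling (1.01) and the offset for effective length (1.08). Sema7a, which is anchored to the membrane by a lipid and binds Plxnc1 and beta-1 integrin, rose from 1.62 to 2.85 CPM (0.81, adjusted p = 1.01e-04).

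**Figure D3:**
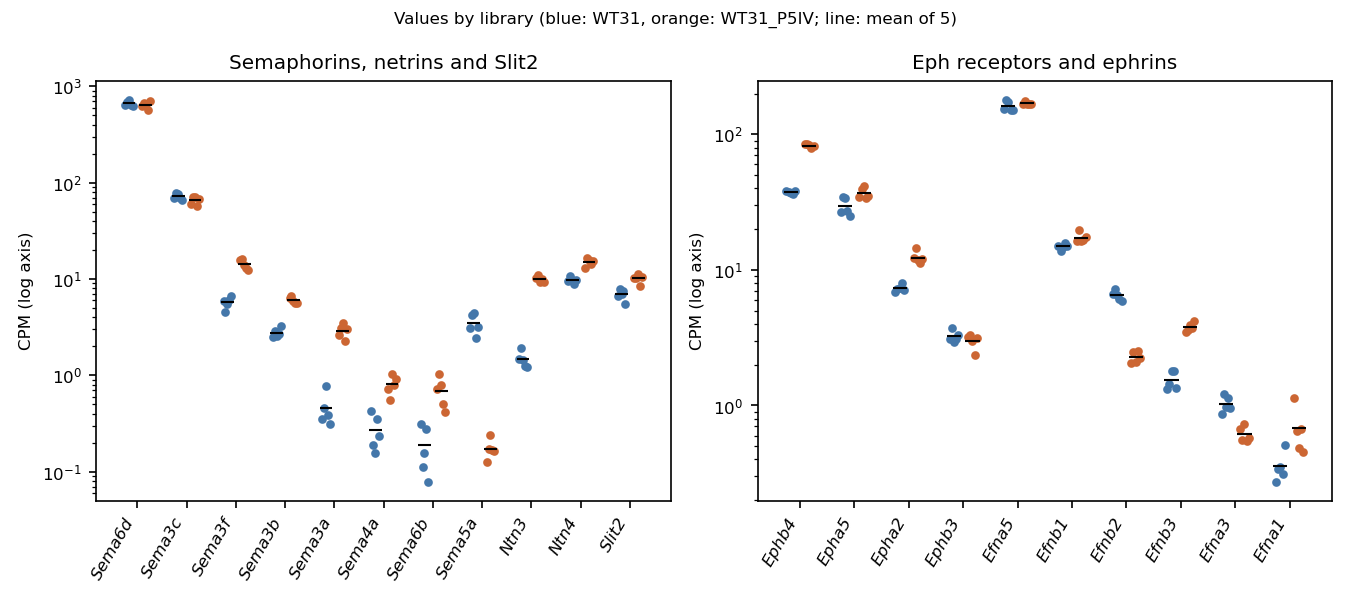
CPM on a log axis of semaphorins, netrins and Slit2 (left) and of Eph receptors and ephrins (right) in each library, with WT31 in blue, WT31_P5IV in orange and a line at the mean of 5. Sema6d and Efna5, the most abundant ligands, overlap between groups, whereas Sema3a, Sema5a, Ntn3, Ephb4 and Efnb2 are apart.

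Plexins are the semaphorin receptors. Of the 8 tested, 7 were higher, Plxnb3 was lower, and 4 rose by more than 2-fold, where 34.6% of all tested genes were higher and 5.42% were higher by more than 2-fold. Plxnb2, a receptor of class 4 semaphorins, was the most abundant with 75.0 ± 3.31 TPM in WT31 and 126 ± 2.83 TPM in WT31_P5IV. It had 217, 229.5, 238, 217 and 218 CPM in WT31 and 408, 430.4, 436, 377 and 391 CPM in WT31_P5IV, with every WT31_P5IV library above WT31. The log2 fold change was 0.87 ± 0.05 (adjusted p = 6.21e-10). Plxnb1, the receptor of Sema4d (ENSMUSG00000053646.13, chr9:109095389-109119917, forward strand), had 21.7, 25.7, 23.7, 22.2 and 22.0 CPM in WT31 and 57.7, 61.8, 64.7, 53.3 and 56.1 CPM in WT31_P5IV. Its groups were apart and its log2 fold change was 1.35 ± 0.06 (adjusted p = 1.13e-10). Plxnb3, the receptor of Sema5a, was low and went from 1.87 to 1.36 CPM, a log2 fold change of -0.46 ± 0.18 (adjusted p = 0.0340). Its groups overlapped, and the call was lost without WT31 replicate 2, 3 or 5 or WT31_P5IV replicate 4 or 5 (adjusted p of 0.0554 to 0.0857), with an effective length offset (adjusted p = 0.259), with limma voom after TMM scaling (adjusted p = 0.0505) and in both TPM fits (adjusted p = 0.138 and 0.128). It was kept with limma voom without scaling (adjusted p = 0.0257) and with the correction for GC content and length (adjusted p = 0.0136).

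The plexins A pair with neuropilins to receive class 3 semaphorins and also bind class 6 semaphorins directly. All 3 tested were higher, where 34.6% of all tested genes were. Plxna1 (ENSMUSG00000030084.11, chr6:89316314-89362620, reverse strand) had 177, 199, 194, 181 and 177 CPM in WT31 and 386, 398, 398, 348 and 374 CPM in WT31_P5IV. No library overlapped and the log2 fold change was 1.04 ± 0.05 (adjusted p = 1.39e-10). Of its exon bases, 10.7% lie under exons of Gm26811 on the other strand, which had 2 to 15 counts. Plxna3 (ENSMUSG00000031398.13, chrX:74329066-74344689, forward strand) had 4.86, 5.75, 6.31, 6.17 and 5.43 CPM in WT31 and 14.9, 15.8, 15.5, 13.1 and 12.5 CPM in WT31_P5IV. The groups were apart, with 1.33 ± 0.09 on the log2 scale (adjusted p = 6.11e-09). Plxna2 (ENSMUSG00000026640.12, chr1:194618218-194816869, forward strand) had 3.06, 4.01, 2.71, 3.18 and 3.09 CPM in WT31 and 7.15, 7.68, 7.24, 5.52 and 6.57 CPM in WT31_P5IV. It rose by 1.09 ± 0.11 on the log2 scale (adjusted p = 8.84e-07), again with no overlap. The fourth, Plxna4, had 0 to 6 counts in WT31 and 3 to 8 in WT31_P5IV and was not tested. Plxna1 and Plxna2 exceeded 2-fold only narrowly and fell short of it under some alternatives. For Plxna1 the log2 fold change was 0.83 and 0.81 in the TPM fits, 0.94 with the correction for GC content and length, 0.97 with an effective length offset or with limma voom without scaling, and 0.98 without the filter on low counts. Plxna2 was at 0.68 and 0.31 in the TPM fits with pseudocounts of 0.1 and 1 and at 0.93 with an effective length offset.

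Plxnc1, the receptor of Sema7a, had 178 ± 14.5 CPM in WT31 and 293 ± 18.5 CPM in WT31_P5IV, an increase of 0.72 ± 0.06 on the log2 scale (adjusted p = 4.90e-08). Plxnd1, the receptor of Sema3e and a co-receptor for Sema3c, had 75.1 ± 2.27 CPM in WT31 and 144 ± 9.07 CPM in WT31_P5IV, and it rose by 0.94 ± 0.05 on the log2 scale (adjusted p = 2.20e-10), passing the 2-fold filter with the offset for effective length (1.03). Plxnb2 and Plxna1 together held 61.8% ± 1.87 of the plexin TPM in WT31 and 62.5% ± 1.10 in WT31_P5IV (SD, n = 5). Several plexins lie in regions in which most genes were higher. Within 500 kb of Plxnd1, 14 of 16 tested genes were higher and none was lower, with a median log2 fold change of 0.50. Around Plxnb2 these were 18 of 24 with a median of 0.52, and around Plxna1 they were 6 of 9 with a median of 0.61. Chromosome 6, which holds Plxna1 and Plxnd1, had a median of 0.28 over its tested genes. The part of these regions in the plexin values was not tested. Plxna2 had 2 tested neighbours, both higher, with a median of 0.88. Plxnb1, Plxna3 and Plxnc1 had neighbours with medians of 0.13, -0.04 and 0.15.

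**Figure D4:**
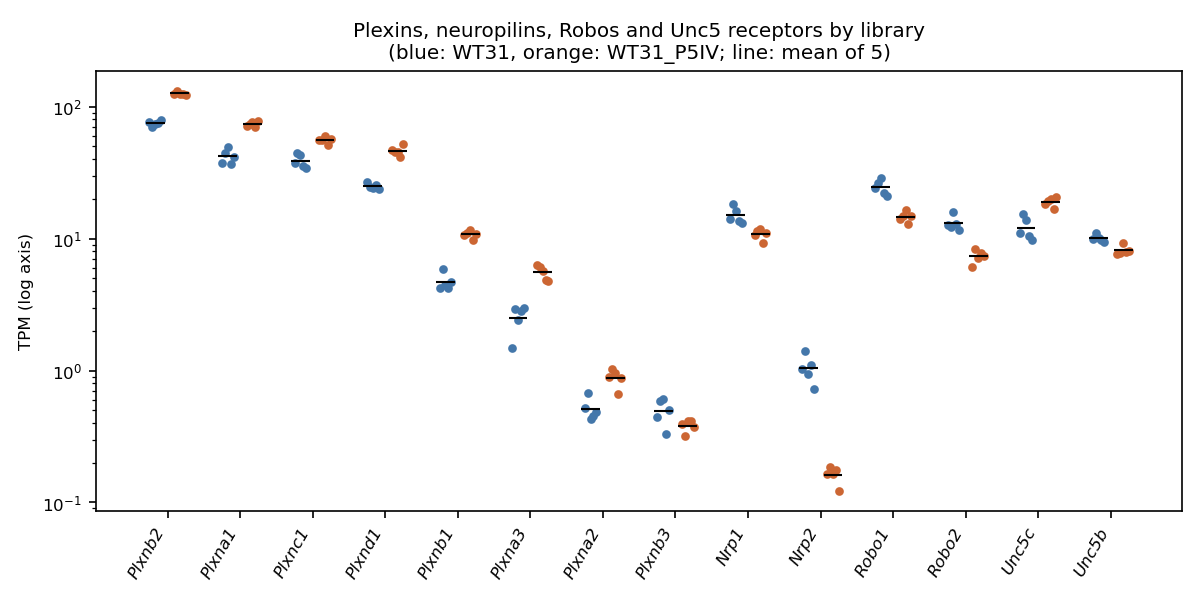
TPM on a log axis of plexins, neuropilins, Robos and Unc5 receptors in each library, with WT31 in blue, WT31_P5IV in orange and a line at the mean of 5. The plexins from Plxnb2 to Plxna2 have higher means in WT31_P5IV, with Plxna2 overlapping in TPM, while Nrp1, Nrp2, Robo1 and Robo2 are lower.

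Neuropilins bind class 3 semaphorins and VEGF but have only a short cytoplasmic tail of their own. Both were lower, where 33.9% of all tested genes were. Nrp2 (ENSMUSG00000025969.15, chr1:62703285-62818695, forward strand), whose promoter with 37 CG pairs is printed above, had 4.27, 5.53, 3.84, 4.68 and 3.13 CPM in WT31 and 0.757, 0.901, 0.764, 0.842 and 0.578 CPM in WT31_P5IV. All 5 WT31_P5IV libraries were below 1 CPM and all 5 WT31 libraries above 3, with a log2 fold change of -2.48 ± 0.18 (adjusted p = 1.58e-08). Nrp1 was the dominant neuropilin with 15.1 ± 2.21 TPM in WT31 and 10.9 ± 0.962 TPM in WT31_P5IV. Its CPM was 31.9, 40.4, 36.0, 31.9 and 30.6 in WT31 and 27.4, 30.03, 30.1, 24.1 and 27.7 in WT31_P5IV, which are narrowly apart. The decrease was much smaller than that of Nrp2, with a log2 fold change of -0.29 ± 0.08 (adjusted p = 0.00410). Summed neuropilin TPM was 0.359 ± 0.0434 of summed plexin A TPM in WT31 and 0.137 ± 0.00739 of it in WT31_P5IV. The ratio of Nrp2 to Nrp1 went from 0.0685 ± 0.0109 to 0.0151 ± 0.00298. Thus Sema3a and Sema3f rose in cells in which Nrp1 and Nrp2, the neuropilins that bind them, fell. These ratios were chosen after the values were seen and are given without a test.

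Eph receptors are the largest group of receptor tyrosine kinases, but 9 of the 14 were too low to be tested. Ephb4, the receptor of ephrin-B2 (ENSMUSG00000029710.15, chr5:137350109-137378669, forward strand), led the family with 13.7 ± 0.445 TPM in WT31 and 26.8 ± 1.01 TPM in WT31_P5IV. It had 38.5, 37.7, 36.7, 36.5 and 38.5 CPM in WT31 and 85.0, 84.7, 83.7, 78.9 and 81.6 CPM in WT31_P5IV. The groups were far apart relative to their spread, with a log2 fold change of 1.14 ± 0.04 (adjusted p = 2.46e-12), or 0.93 with a correction for GC content and length and 0.96 and 0.92 in the TPM fits. Epha2, a receptor of ephrins A that is widely studied in cancer, rose from 7.30 to 12.3 CPM (0.76 ± 0.07, adjusted p = 3.94e-07). Epha5, second in the family with 8.64 ± 1.65 TPM in WT31 and 9.52 ± 0.911 TPM in WT31_P5IV, rose by 1.25-fold in CPM (adjusted p = 0.00579) with overlapping groups, and was not called on the TPM scale. For Ephb3 the log2 fold change was -0.11 ± 0.11 (adjusted p = 0.403, 95% interval -0.35 to 0.13), and it was called lower with the correction for GC content and length (-0.28, adjusted p = 0.0368). Epha1 had 4 to 12 counts and missed the threshold with 0.70 ± 0.31 (adjusted p = 0.0560). It passed without WT31 replicate 2 (adjusted p = 0.0160) or WT31_P5IV replicate 1 (adjusted p = 0.0295), with limma voom after TMM scaling (adjusted p = 0.0392) and with upper-quartile scaling (adjusted p = 0.0474), and part of its exons lies opposite those of the abundant gene Zyx.

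Ephb6, an Eph receptor without kinase activity (ENSMUSG00000029869.7, chr6:41605482-41620509, forward strand), did not pass the filter on low counts but was under the floor in only 1 of the lines. It had 0, 2, 0, 1 and 0 estimated counts in the WT31 libraries and 10, 9, 12, 14 and 15 in the WT31_P5IV libraries. These sum to 3 counts in WT31 and 60 in WT31_P5IV, a ratio of 21.4 after scaling by library size, with an exact 95% interval of 6.97 to 107 that covers counting error only. Ephb6 is described for being under the floor in one line and above it in the other, which fixes that the groups do not overlap, and no test is given. Ephb2 had 6 to 15 estimated counts in WT31 and 1 to 8 in WT31_P5IV. The other untested receptors were Epha3, Epha4, Epha6, Epha7, Epha8 and Ephb1, which had at most 3 counts in any library, and Epha10, which had at most 4.

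All 8 ephrins were tested, of which 4 were higher and 2 were lower, so that 75% of them were called, a share near the 68.5% of all tested genes. Efna5, a ligand of many EphA receptors that is anchored to the membrane by a lipid, supplied 77.8% ± 1.33 of the ephrin TPM in WT31 and 77.2% ± 0.561 in WT31_P5IV. It had 154, 178, 174, 152 and 151 CPM in WT31 and 166, 176, 169, 167 and 167 CPM in WT31_P5IV. The ranges overlapped, and the log2 fold change was 0.06 ± 0.05 (adjusted p = 0.259, 95% interval -0.04 to 0.17). With the correction for GC content and length it was called higher (0.18, adjusted p = 3.66e-04). The transmembrane ephrins B changed in both directions. Efnb2, the preferred ligand of Ephb4 (ENSMUSG00000001300.16, chr8:8617434-8661242, reverse strand), had 6.62, 7.27, 6.55, 6.13 and 5.86 CPM in WT31 and 2.06, 2.49, 2.09, 2.53 and 2.23 CPM in WT31_P5IV. No libraries overlapped, with a log2 fold change of -1.51 ± 0.10 (adjusted p = 3.91e-09). Efnb3 (ENSMUSG00000003934.5, chr11:69554092-69560205, reverse strand) had 1.33, 1.44, 1.80, 1.81 and 1.35 CPM in WT31 and 3.49, 3.60, 3.90, 3.75 and 4.17 CPM in WT31_P5IV. It rose by 1.29 ± 0.12 on the log2 scale (adjusted p = 2.61e-07), with the groups apart. Efnb1, the most abundant ephrin B with 7.26 ± 0.243 TPM in WT31 and 7.48 ± 0.558 TPM in WT31_P5IV, rose by 1.16-fold in CPM (adjusted p = 0.00655), which a correction for GC content and length reduced to a log2 fold change of 0.01 (adjusted p = 0.928). It was not called in the TPM fits (adjusted p = 0.620 and 0.617) or without the filter on low counts (adjusted p = 0.0566) either.

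The receptor Ephb4 and its ligand Efnb2 therefore moved in opposite directions. Their TPM ratio was 5.82 to 7.49 in the WT31 libraries and 34.5 to 44.9 in the WT31_P5IV libraries (means 6.56 ± 0.606 and 39.2 ± 3.94, SD, n = 5). This ratio was also chosen after the values were seen. The ephrins A Efna1, Efna3 and Efna4 are adjacent on chromosome 3, and each had a different outcome. Efna1 went from 0.359 to 0.678 CPM (log2 fold change 0.90 ± 0.30, adjusted p = 0.0133), with overlapping groups. It passed the 2-fold filter without WT31 replicate 5 or WT31_P5IV replicate 3 or 5, with 1.00 to 1.05. Efna3 fell from 1.03 to 0.616 CPM (-0.73 ± 0.18, adjusted p = 0.00178), and passed the 2-fold filter with the offset for effective length (-1.22) and on the log2(TPM + 0.1) scale (-1.17). Efna4 had 4.04 ± 0.527 CPM in WT31 and 4.28 ± 0.186 CPM in WT31_P5IV and was not called (adjusted p = 0.462, 95% interval -0.12 to 0.29). Efna3 and Efna4 share 10.5% and 8.80% of their 31-base words with other genes, so a part of their reads may have been divided. Efna2 rose by 1.33-fold (adjusted p = 0.00330), and was not called with the correction for GC content and length (0.21, adjusted p = 0.0631) or in the TPM fits (adjusted p = 0.0691 and 0.0599).

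Slit2, a secreted repellent and the only Slit above the floor in all libraries, had 6.70, 7.91, 7.06, 7.47 and 5.54 CPM in WT31 and 10.3, 10.1, 11.3, 8.47 and 10.6 CPM in WT31_P5IV. Every WT31_P5IV library was above WT31 and the log2 fold change was 0.55 ± 0.10 (adjusted p = 1.37e-04). Slit1 and Slit3 had at most 3 and 2 counts in any library. The main Slit receptors moved the other way. Robo1 had 106, 116, 122, 102 and 98.2 CPM in WT31 and 71.1, 77.7, 79.3, 64.8 and 73.1 CPM in WT31_P5IV. The groups did not overlap, with a log2 fold change of -0.57 ± 0.07 (adjusted p = 2.10e-06). Robo2 fell from 24.0 to 15.9 CPM (-0.60 ± 0.08, adjusted p = 1.25e-05), by nearly the same factor. The ratio of Robo1 to Slit2 TPM was 13.4 ± 2.47 in WT31 and 5.11 ± 1.01 in WT31_P5IV (SD, n = 5; chosen after the values were seen). Robo1 and Robo2 are neighbours on chromosome 16, over whose tested genes the median log2 fold change was -0.42, and the part of the chromosome in these decreases was not tested. Robo3, a receptor known from commissural neurons, had 8 to 18 counts and was not called (adjusted p = 0.760). Robo4, an endothelial receptor, had at most 6 counts and was not tested, while of the endothelial markers Cdh5 and Lyve1 were at 0 and Egfl7 was called higher (0.62, adjusted p = 1.66e-04).

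Netrins are laminin-related secreted proteins. Ntn3 (ENSMUSG00000117406.1, chr17:24203848-24209531, reverse strand) showed the largest increase of all tested members in the reported fit. With the correction for GC content and length, the log2 fold change of Sema3a was larger (2.80, against 2.54 for Ntn3). Ntn3 had 1.49, 1.93, 1.45, 1.26 and 1.23 CPM in WT31 and 10.2, 11.1, 9.37, 10.0 and 9.29 CPM in WT31_P5IV. The lowest WT31_P5IV library was several times above the highest WT31 library, and the log2 fold change was 2.76 ± 0.11 (adjusted p = 2.86e-11), a 6.75-fold increase. In the 500 kb around it, 25 of 34 tested genes were also higher, with a median of 0.35 on the log2 scale, and the part of the region in the increase of Ntn3 was not tested. Ntn4, the most abundant netrin with 4.28 ± 0.381 TPM in WT31 and 5.74 ± 0.510 TPM in WT31_P5IV, had 9.60, 10.6, 9.84, 8.84 and 9.82 CPM in WT31 and 12.9, 16.4, 15.7, 14.4 and 15.4 CPM in WT31_P5IV. Groups were apart, with 0.62 ± 0.07 on the log2 scale (adjusted p = 2.43e-06). Ntn1, the classical netrin, had at most 6 counts in any library and Ntn5 at most 3.

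Unc5 receptors mediate repulsion by netrins. Unc5c was the most abundant with 12.1 ± 2.41 TPM in WT31 and 19.0 ± 1.53 TPM in WT31_P5IV. It had 66.0, 85.1, 80.3, 63.6 and 61.0 CPM in WT31 and 121, 131, 130.4, 114 and 132 CPM in WT31_P5IV, with no overlap. The log2 fold change was 0.82 ± 0.08 (adjusted p = 6.53e-07). Unc5b went from 38.1 to 34.9 CPM (-0.13 ± 0.05, adjusted p = 0.0378) with overlapping groups, and it was no longer called without WT31_P5IV replicate 1, 2, 4 or 5 (adjusted p of 0.0632 to 0.0882) or with upper-quartile scaling (adjusted p = 0.0813). The ratio of Unc5c to Unc5b TPM was 1.20 ± 0.176 in WT31 and 2.34 ± 0.202 in WT31_P5IV (SD, n = 5; chosen after the values were seen). Unc5a had 1.60 ± 0.275 CPM in WT31 and 1.63 ± 0.205 CPM in WT31_P5IV and was not called (95% interval -0.31 to 0.35), and Unc5d had at most 6 counts.

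Genes that work with these families but lie outside the symbol rule were described as lists of receptors and effectors. Of 113 listed genes, 112 were found and 90 were tested, of which 30 were higher and 44 were lower, beside 34.6% and 33.9% of all tested genes. The 2-fold filter was passed by 9 of the 90, a share near the 9.10% of all tested genes. The netrin receptors outside the Unc5 family diverged. Dcc, the attractive netrin receptor, had 84, 118, 101, 93 and 75 estimated counts in the WT31 libraries and 9, 2, 13, 11 and 8 in the WT31_P5IV libraries. All WT31_P5IV libraries were lower, with a log2 fold change of -3.34 ± 0.24 (adjusted p = 1.39e-08). Neogenin (Neo1), its paralog and a receptor for netrins and RGM proteins, had 74.4, 85.5, 87.0, 74.5 and 74.1 CPM in WT31 and 137, 151, 147, 129.6 and 135 CPM in WT31_P5IV. It rose by 0.82 ± 0.06 on the log2 scale (adjusted p = 1.15e-08). Flrt3, a ligand of Unc5 receptors and a binding partner of Robo1, fell from 11.7 to 4.94 CPM (-1.25 ± 0.09, adjusted p = 1.04e-08). Of 5 neuron markers, Syt1, Snap25, Rbfox3 and Stmn2 were at or near 0 in both lines, and Tubb3 made up nearly all of their sum of 437 to 510 TPM in WT31 and 280.2 to 304 TPM in WT31_P5IV. The part of Tubb3-expressing cells in the decrease of Dcc was not tested.

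Among co-receptors and receptors of semaphorins other than plexins, 7 of the 10 tested were higher and 1 was lower, beside 34.6% and 33.9% of all tested genes. Mst1r, the receptor tyrosine kinase Ron, which associates with plexins B, had 0.784, 0.606, 0.784, 0.983 and 0.594 CPM in WT31 and 17.4, 21.7, 18.8, 18.3 and 20.4 CPM in WT31_P5IV. The log2 fold change was 4.68 ± 0.11 (adjusted p = 1.50e-13), a 25.6-fold increase in CPM with no overlap, and its level per length was 0.810 ± 0.451 TPM in WT31 and 12.3 ± 1.75 TPM in WT31_P5IV. On the log2(TPM + pseudocount) scale its difference was smaller, at 3.92 with a pseudocount of 0.1 and 2.90 with 1. Ptk7, a pseudokinase that associates with plexin A1, had 3.72, 3.94, 4.12, 4.68 and 4.99 CPM in WT31 and 45.0, 48.7, 45.8, 43.8 and 43.5 CPM in WT31_P5IV. Here too the groups were far apart (3.40 ± 0.07, adjusted p = 3.54e-14). Cd72, a receptor of Sema4d on B cells, had 5 to 30 counts and overlapping groups (1.09 ± 0.37, adjusted p = 0.0174), and it was not called without WT31_P5IV replicate 4 (adjusted p = 0.0530), with an effective length offset (adjusted p = 0.102) or in the TPM fits (adjusted p = 0.119 and 0.116). Met, Erbb2, Itgb1 and Nrcam were also higher and L1cam was lower, each by less than 2-fold.

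The counts of the effector lists were not tested against the shares of all tested genes, of which 34.6% were higher and 33.9% were lower. Of 24 tested semaphorin and plexin effectors, 7 were higher and 13 were lower. The counts were 5 and 11 of 19 for Slit and Robo effectors, 3 and 11 of 20 for Eph and ephrin effectors, and 3 and 6 of 10 for netrin effectors. Dpysl3, a collapsin response mediator, had 465, 495, 496, 445 and 444 CPM in WT31 and 197, 195, 194, 196 and 190.4 CPM in WT31_P5IV. It fell by 2.41-fold (-1.27 ± 0.04, adjusted p = 2.47e-12), with no overlap. Ngef, an ephexin that acts downstream of EphA receptors, had 90, 98, 90, 70 and 86 estimated counts in WT31 and 0, 0, 1, 0 and 0 in WT31_P5IV. It was lower (adjusted p = 6.44e-11), and with 434 counts in WT31 and 1 in WT31_P5IV in all, the size of the decrease is poorly known, with a scaled ratio of 406 and an exact 95% counting interval of 72.5 to 16079. Grip1, an adaptor of ephrins B, had 71, 80, 61, 60 and 63 estimated counts in WT31 and 1, 1, 2, 2 and 4 in WT31_P5IV, where 4 of the 5 libraries were under the floor. It was lower too (adjusted p = 3.61e-10), with 335 counts against 10 in all, a scaled ratio of 31.4 with an exact 95% counting interval of 16.8 to 66.0. Pak1, a kinase activated by Rac, was low but rose from 0.241 to 1.53 CPM (2.64 ± 0.19, adjusted p = 1.31e-08).

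**Figure D5:**
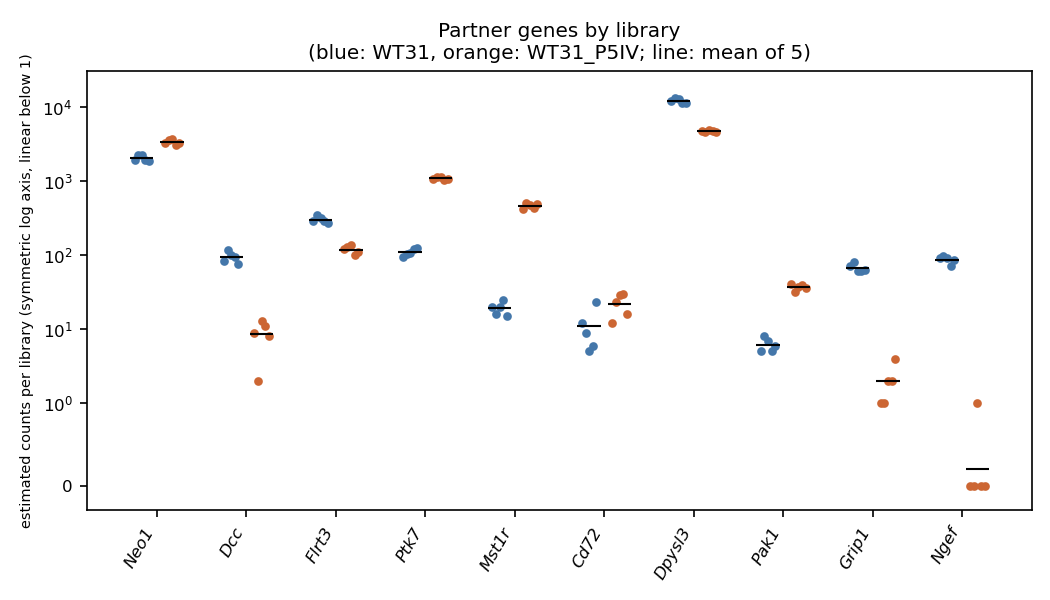
Estimated counts per library of partner genes, on a symmetric log axis that is linear below 1, with WT31 in blue, WT31_P5IV in orange and a line at the mean of 5. Neo1, Ptk7, Mst1r and Pak1 are higher in WT31_P5IV, Dcc, Flrt3, Dpysl3, Grip1 and Ngef are lower, and Cd72 overlaps.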

How the data were processed

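Total RNA of cultured WT31 and WT31_P5IV cells was sequenced, with 5 libraries per line. Per the submitters' processing notes, the authors trimmed reads with Trim Galore 0.6.4 and quantified transcripts with kallisto 0.4.6 on GRCm38.p6. The strand setting is not given in the sources used here. The authors deposited, per library, estimated counts and TPM per gene. Sources differ on the sequencing instrument.

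Identifiers were matched to GENCODE M21 without version (55144 of 55385). Estimated counts were rounded, filtered by filterByExpr (13620 genes kept), scaled by TMM and tested with edgeR 4.0.16 (quasi-likelihood F test, Benjamini-Hochberg adjustment, default prior count 0.125). The SE was computed as the absolute log2 fold change, fitted without a prior count, over the square root of the F statistic. Intervals of 95% used this SE and the t quantile at each gene's degrees of freedom in that test. DESeq2 1.42.0 and limma 3.58.1 were alternatives, with other scalings, filters, a replicate block, corrections for length and GC content, TPM with pseudocounts of 0.1 and 1, and each library left out. Code was tested on simulated data. Pseudoalignment divides reads between genes with shared sequence, and rounding matters most at few counts.

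The members, gene lists and rules were chosen with earlier results of these data known. Values are given per library for members past the 2-fold filter, the most abundant member of each family and members at or under the floor of 3 counts in every library of 1 line and above it in every library of the other. Members called with a change of 1.5-fold to 2-fold are given by mean levels. Partners are named if called past 2-fold, and Dcc and Neo1 always. Ratios between members were chosen later. Replicate numbers are those of the sample titles; the library names in the descriptions number the WT31 libraries differently. Replicates are cultures of the same 2 lines, so p-values measure the spread between these libraries. Libraries of the same group differed by more than counting noise. Protein sequences were not used here.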

Additional observations from a re-analysis of the deposited data

Results flagged for a closer look

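In 68 groups of 5 libraries, each library was compared with the others of its line by Dixon's test at the 95% level, by which chance marks about 1 in 20 groups. Efna5 was at 176.2 CPM in WT31_P5IV replicate 2, while the other 4 WT31_P5IV libraries lay between 166 and 169 CPM, and the WT31 libraries spanned a wider range than this. Ngef was at 0.0402 CPM in WT31_P5IV replicate 3, which is 1 estimated count, while the other 4 WT31_P5IV libraries were at 0.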

How the results depend on the processing

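The numbers of members and partners called stayed within 1.5 times the reported counts under every alternative fit. The numbers past the 2-fold filter were moved by limma on log2(TPM + 1), to 2 higher and 0 lower, where the pseudocount compresses low genes. They also moved with the filter itself, to 21 higher and 5 lower at 1.5-fold and to 2 higher at a log2 fold change of 2. On the TPM scale the median of all genes shifted by -0.167 (pseudocount 0.1) and -0.159 (pseudocount 1). Efna5 changed sign to -0.10 in both TPM fits and to -0.00279 with limma voom without scaling, and Sema6d to 0.028 with the correction for GC content and length, which was added after seeing the data. The cause was not tested. Neither gene was called in the reported fit, but Sema6d was called lower in both TPM fits and Efna5 higher with the correction for GC content and length. With CPM per inferred effective length, the log2 ratios of summed levels moved to 0.83 for Eph receptors, 0.084 for ephrins, 0.11 for semaphorins, 0.90 for plexins, -0.57 for Robos and 1.15 for netrins. The replicate numbers are those of the titles, which differ from the numbers in the library names for WT31, and they did not pair the libraries: deviations of same-numbered libraries correlated by -0.10 to 0.26, and 2 of 5 numbers matched best with their own. A fit with the replicate block gave 29 members higher and 10 lower, with 12 and 3 past the 2-fold filter, and 32 partners higher and 43 lower, but not all the same members: Sema4b was no longer called and Sema3c was called lower. Ephb4, Sema3b and Plxna1 fell under 2-fold with the GC correction and in both TPM fits, and Plxna2 in both TPM fits. The calls of Epha5, Efna2, Efnb1, Sema6a and Plxnb3 were lost in both TPM fits, and those of Efna2 and Efnb1 also with the GC correction. With log2(TPM + 0.1) the log2 fold changes of low genes were smaller, at 1.82 for Sema3a, -2.08 for Sema5a, 1.05 for Sema6b, -2.16 for Dcc, -2.95 for Grip1, 1.63 for Pak1 and 3.92 for Mst1r, and with an effective length offset Sema5a was at -3.35. Ephb3 was called lower with the GC correction, and Epha1 higher with limma voom after TMM scaling and with upper-quartile scaling. The fold changes of Efna4, Sema3c, Robo3 and Unc5a, which were not called, turned sign in 3, 1, 5 and 8 alternatives. The detection floor limits statements on members under about 10 counts. Sema3a, Sema4a, Sema6b, Pak1 and Cd72 passed the filter on low counts through WT31_P5IV, the line in which they were higher. Sema5a, Dcc, Grip1 and Ngef passed it through WT31, where they were higher. In the other line these genes had libraries under 10 counts, so a filter of at least 10 counts in every library left them untested.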
